A study of Homo sapiens with 54 samples.

Results

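The genes described here were 37 components of homologous recombination and the Fanconi anemia pathway. All were found among the 55906 gene rows of each of 4 expression tables in TPM, a level scaled by transcript length and by library. These 37 were chosen by name from textbook knowledge of these pathways. The choice was made with earlier results of these data known, so they are not an independent set. They were followed in each perturbation of *TRA2A* and *TRA2B*, a pair of related activators of RNA splicing, against the control of the same cell line. A549 and NCI-H23, established lung cancer lines, stably expressed Zim3-dCas9, a nuclease-dead Cas9 fused to a repressor domain that silences promoters (CRISPRi), and were collected on day 5 after transduction with guides to control loci (Control KD), to *TRA2A* (TRA2A KD), to *TRA2B* (TRA2B KD) or to both (TRA2A/B DKD). LN229 and LN319, established glioma lines, were collected on day 7 after transduction with vectors carrying Cas9 and guides, in cells overexpressing luciferase (Luc Control KO, Luc TRA2A KO, Luc TRA2B KO) or *TRA2B* (TRA2B-OE Control KO, TRA2B-OE TRA2A KO). Each of the 18 groups had 3 libraries, 12 per lung line and 15 per glioma line, 54 in all. All groups shared the Cas9 or dCas9 protein and a guide, the controls included. Knockout groups were transduced populations and not isolated clones, so that uncut and in-frame alleles could remain. The labels do not say whether replicates came from separate cultures, and p-values then measure only the spread between these libraries, which may be technical.

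Homologous recombination repairs a broken chromosome by copying the sister chromatid. The broken ends are cut back to single strands, BRCA complexes load a recombinase onto them, paralogs and translocases help the filament invade the sister, and helicases and nucleases take the joined molecules apart. The Fanconi anemia pathway deals with crosslinks between the DNA strands: a core complex with an E2 enzyme attaches ubiquitin to the FANCD2-FANCI clamp, nucleases then unhook the crosslink, and recombination finishes the repair. Many of these genes are transcribed mainly in S and G2 phase in cycling cells, and inherited defects in them cause Fanconi anemia or a high risk of breast and ovarian cancer.

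In both lung lines the TRA2A/B DKD libraries held less RNA of the FANCD2-FANCI clamp and its deubiquitinase than the Control KD libraries. The same held for the exonuclease *EXO1*, the polymerase *POLQ* and most helicases and strand exchange factors. Of all genes, 16.3% fell in A549 and 23.2% in NCI-H23. No member was called in either single knockdown, where 0.196 to 0.976% of all genes were called. In LN319, *TRA2B* KO raised 12 members and lowered 7 of 37, where 18.6% of all genes rose and 24.0% fell, and 7 of the raised ones were among the 18 lower in both double knockdowns. A member was called where its adjusted p in limma, a linear model fitted to all genes of a line on log2(TPM + 0.1), was below 0.05.

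The 3 members with the largest mean changes among those lower in both double knockdowns, *BARD1*, *POLQ* and *FANCG*, are introduced by their promoters. They were picked by this measure, so that their shared direction there is not a result. Of the next 5 by that measure, *RMI2* had no window in the table used, and the windows of *EXO1*, *FANCD2*, *RAD51AP1* and *BRIP1* held more than 30 bases of annotated untranslated region and are not shown. The 250 bases before the RefSeq start (GRCh38.p14) are printed 5′ to 3′ on the gene's strand, in lower case, with capitals for any match to 3 elements common in cell cycle promoters, each searched on both strands. The E2F-type element was searched in its form TTCCCGC and also in the other form, TTGGCGC. The CCAAT box was searched as spelled in its name. For the cell cycle genes homology region (CHR) the usual form was TTTGAA and the rarer form TTCGAA. *BARD1* lies on chromosome 2, *POLQ* on chromosome 3 and *FANCG* on chromosome 9, all 3 on the minus strand. The Gencode v44 gene of *FANCG* starts further upstream, so that the 62 bases of its window nearest the RefSeq start lie inside that gene, whereas the other two windows lie outside theirs.
BARD1, chr2:214809684-214809933, minus strand: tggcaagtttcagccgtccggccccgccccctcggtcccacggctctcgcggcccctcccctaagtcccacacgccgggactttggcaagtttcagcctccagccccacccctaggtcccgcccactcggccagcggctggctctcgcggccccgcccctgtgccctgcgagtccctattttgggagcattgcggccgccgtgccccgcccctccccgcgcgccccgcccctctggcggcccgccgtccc
POLQ, chr3:121545989-121546238, minus strand: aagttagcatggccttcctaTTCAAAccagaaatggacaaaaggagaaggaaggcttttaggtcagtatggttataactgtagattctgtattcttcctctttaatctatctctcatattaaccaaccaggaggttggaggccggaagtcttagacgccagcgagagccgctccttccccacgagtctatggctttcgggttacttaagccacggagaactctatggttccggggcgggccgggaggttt
FANCG, chr9:35079943-35080192, minus strand: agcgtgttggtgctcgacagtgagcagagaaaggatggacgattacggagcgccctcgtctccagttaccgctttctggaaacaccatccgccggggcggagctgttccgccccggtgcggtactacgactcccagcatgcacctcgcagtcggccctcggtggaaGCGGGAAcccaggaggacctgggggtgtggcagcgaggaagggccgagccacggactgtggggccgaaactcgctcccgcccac

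The *FANCG* window held an E2F-type match on the reverse strand, 84 to 78 bases before the start, and the *POLQ* window a CHR match on the reverse strand, 230 to 225 bases before it. The *BARD1* window held none of these letters. GC content was 75.2% for *BARD1*, 48.4% for *POLQ* and 66.0% for *FANCG*. Of the 37 members, 32 had a window, the first annotated one where there were several, and in 22 of these some or all bases lay inside the Gencode v44 gene. Among the 18 members lower in both double knockdowns, 16 had a window and 5 of these (31.2%) held an E2F-type match, namely *RAD51AP1*, *RAD54L*, *FANCG*, *BLM* and *EME1*. Of the other members, 2 of 16 (12.5%) held one, *FANCC* and *FANCL*, and of all 27305 genes with a window 7.95% did. CCAAT boxes stood in 7 of 16 (43.8%), 6 of 16 (37.5%) and 33% of these windows, and CHR letters in 2 of 16 (12.5%), 2 of 16 and 14.6%. These are counts of letters in short windows and were not tested. Of the 16 windows of members lower in both double knockdowns, 13 reached inside the Gencode v44 gene, against 22 of all 32. The windows of the compared sets were thus not fully alike.

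All 37 members passed the filter on low values (at least 1 TPM in at least 4 libraries) in all 4 lines. TPM is scaled by length, so that levels can be set side by side between genes. In the control libraries *FANCA* and *FANCI*, a core complex subunit and a clamp subunit, were among the 4 most abundant members in every line. Control levels of *FANCA* were 72.3 ± 29.7 TPM (A549), 86.7 ± 11.5 (NCI-H23), 110.4 ± 27.8 (LN229) and 132 ± 4.31 (LN319), as mean ± SD of 3. At the other end *FANCB*, an X-linked core complex subunit, averaged 0.512 ± 0.444, 2.05 ± 0.392, 1.4 ± 0.471 and 2.03 ± 0.552 TPM in the same order of lines, the lowest or second lowest member of each line. The 4 tables were normalized separately, and levels between lines were not tested.

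The labels were first checked on the targeted genes, and for the glioma lines only *TRA2A* is given here. *TRA2A* averaged 7.18 ± 2.81 TPM in TRA2A KD against 75.1 ± 5.08 in Control KD of A549, and 6.84 ± 0.255 against 105 ± 2.55 in NCI-H23. *TRA2B* averaged 13.3 ± 0.856 against 137 ± 3.17 and 9.75 ± 1.45 against 92.2 ± 11.3 TPM in TRA2B KD, and in the double knockdowns both genes fell to between 13.9 and 25.2% of control. A knockout need not remove the RNA, and *TRA2A* in Luc TRA2A KO was 33.2% of control in LN319 and 62.9% in LN229. In LN229 TRA2B-OE TRA2A KO it was 69.9 ± 5.2 against 80.2 ± 4.85 TPM and was not called (adjusted p = 0.0793). The keratins *KRT8* and *KRT18* had medians of 2675 and 2733 TPM in A549 and 725 and 1135 in NCI-H23, but the epithelial adhesion genes *EPCAM* (2.61 and 1.34) and *CDH1* (15.7 and 1.65) were low. The glial gene *GFAP* had a median of 2.66 TPM in LN229 and 1.83 in LN319. *OLIG2* was at 7.79 in LN229 and 0.03 in LN319, where *CDH1* was at 123. In LN229 and LN319 the medians were 64.7 and 361 TPM for *SOX2* and 256 and 7.13 for *NES*. Those of *VIM* were 3240 and 3130 and those of *CD44* 779 and 2053. The last pair was not confined to these lines, with *VIM* at 1025 and 1593 and *CD44* at 282 and 82.1 in A549 and NCI-H23. The leukocyte gene *PTPRC* and the endothelial gene *PECAM1* had medians of at most 0.45 TPM in all 4 lines. Some libraries stood apart. The summed TPM of the 37 members was 1040 in A549 Control KD replicate 3 against 717 and 798 in the other controls, and 837 and 867 in replicate 1 of the LN229 Luc and TRA2B-OE controls against 1189 to 1255 in the other 4 controls of that line.

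Neither single knockdown gave a called member in either lung line. At an unadjusted p below 0.05 there were 0 members in TRA2A KD and 9 in TRA2B KD of A549, and 6 in each of NCI-H23. Of all genes tested, 0.207% (A549 TRA2A KD), 0.341% (A549 TRA2B KD), 0.976% (NCI-H23 TRA2A KD) and 0.196% (NCI-H23 TRA2B KD) were called, which rests on the adjusted p. The share of all genes at an unadjusted p below 0.05 was not counted. The median log2 fold change of the members was 0.01, -0.15, -0.04 and -0.11 in the same order. With 1 library left out at a time these medians ranged from -0.04 to 0.11, from -0.27 to -0.02, from -0.05 to 0.02 and from -0.14 to -0.08. The highest A549 values, 0.11 and -0.02, came without Control KD replicate 3. On the TPM as deposited the medians were -0.14 and -0.24 in A549 and 0.01 in NCI-H23 TRA2B KD, with all genes at -0.12, -0.05 and 0.12. All 3 knockdown comparisons of a line share its 3 Control KD libraries.

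In the A549 double knockdown 20 of 37 members fell and none rose, where 16.3% of the 16405 genes tested fell and 14.3% rose. The median log2 fold change was -0.90 for the members and 0.03 for all genes tested, and 17 of the 20 fell by more than 1 on that scale, as did 5.27% of all genes. In the NCI-H23 double knockdown 22 fell and none rose, where 23.2% of 16293 genes fell and 20% rose. Here the median was -0.57 against 0.02 and 9 of the 22 fell by more than 1 (5.74% of all genes). Both lines called 18 members, *BRCA1* and *RMI1* were called in A549 alone, and *FANCC*, *FANCE*, *FANCL* and *NBN* in NCI-H23 alone. A test of the difference between lines was not made. In bulk RNA, fewer cells in S and G2 phase and less RNA of a gene per cell cannot be told apart.

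**Figure D1:**
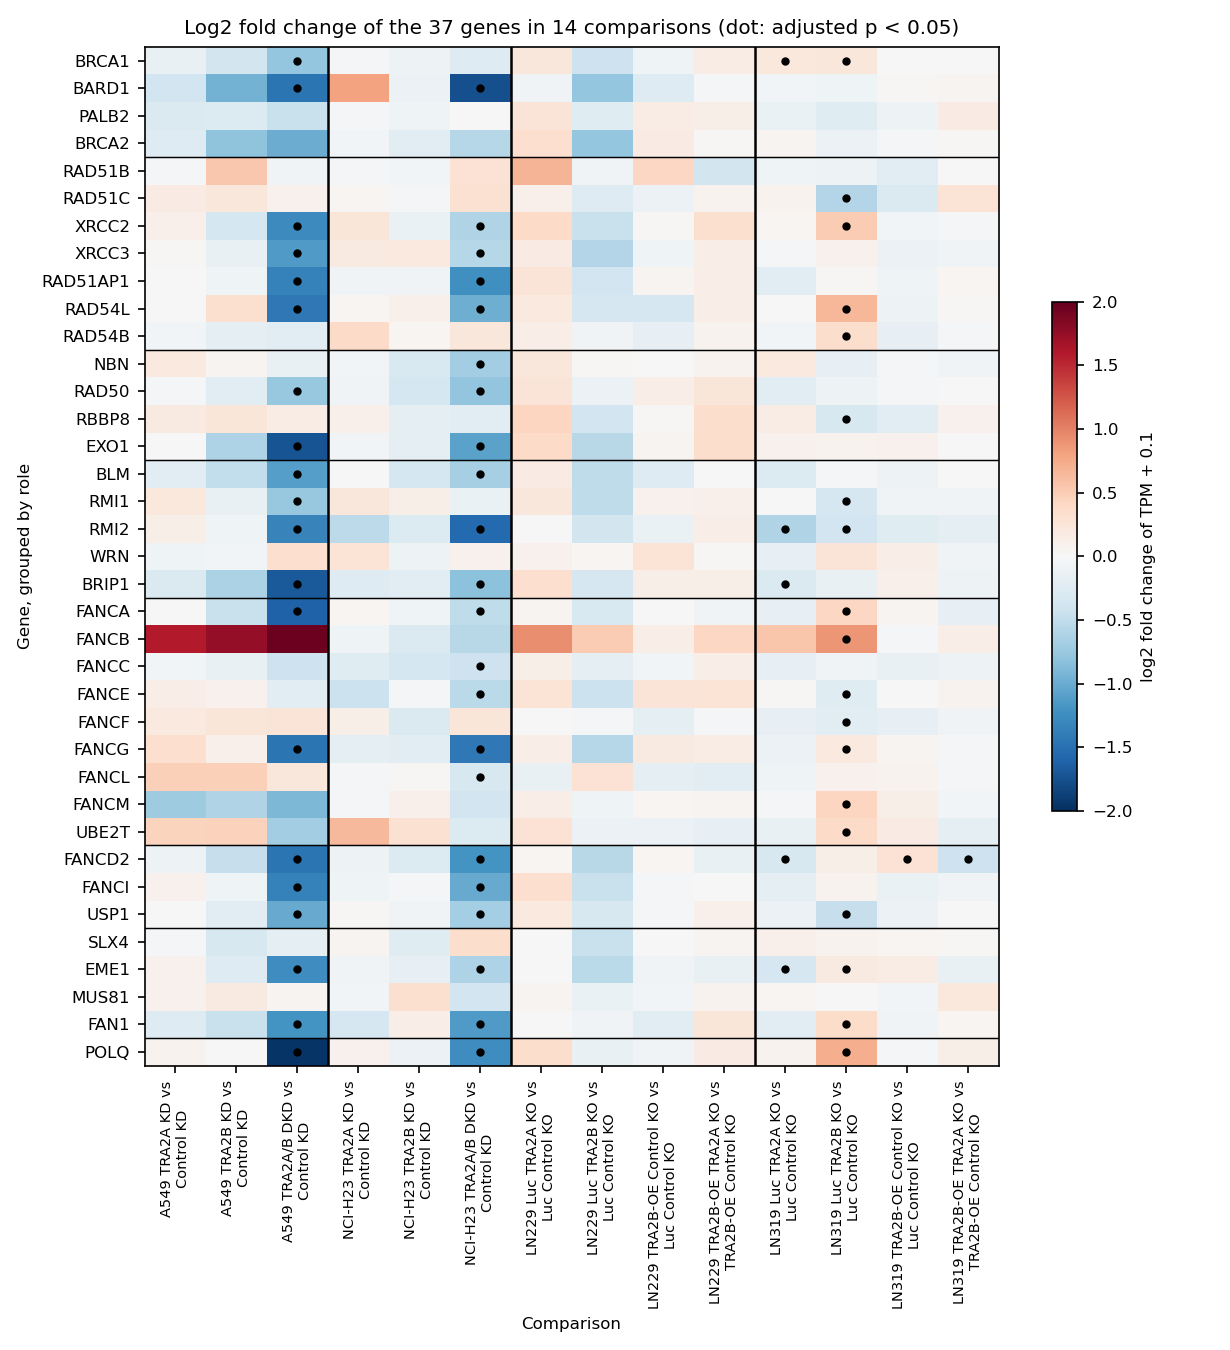
Log2 fold change of TPM + 0.1 (color, from -2 to 2) for the 37 genes (rows, grouped by role) in the 14 comparisons (columns, grouped by line), with a black dot where the adjusted p was below 0.05. The dots stand mainly in the double knockdown columns of A549 (20) and NCI-H23 (22), all blue, and in the LN319 Luc TRA2B KO column (19), of both colors.

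Cell cycle genes moved the same way. Of 38 S phase genes outside the 37, 33 fell and none rose in the A549 double knockdown (median -1.15), and of 54 G2/M genes 45 fell and none rose (median -1.29). In NCI-H23 the counts were 36 and 48 with none higher, and the medians -0.86 and -0.84. In each library, the median difference of the S phase genes from the control mean was -1.15, -1.12 and -1.26 in the A549 DKD and -0.85, -0.90 and -0.87 in the NCI-H23 DKD. The members stood at -0.68, -0.99 and -0.89 and at -0.58, -0.52 and -0.55 in the same libraries. The part of the cell cycle lists in the members' change was not tested.

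RNA of 2 of the 4 BRCA complex genes fell in A549 and of 1 of 4 in NCI-H23, beside 16.3% and 23.2% of all genes. *BARD1*, the partner that *BRCA1* needs for its ubiquitin ligase activity, measured 11.2, 8.61 and 14.8 TPM in the 3 Control KD libraries of A549, 8.55, 9.27 and 5.94 in TRA2A KD, 5.34, 5.24 and 5.78 in TRA2B KD and 4.56, 4.58 and 3.64 in the DKD. Every DKD library was below every other library of the line (log2 fold change against control -1.47 ± 0.20 (SE), adjusted p = 3.13e-04). In NCI-H23 it measured 11.2, 11.8 and 7.21 TPM in Control KD, 10.6, 25.5 and 18.3 in TRA2A KD, 10.01, 9.02 and 10.5 in TRA2B KD and 3.66, 2.08 and 4.15 in the DKD (-1.76 ± 0.32 (SE), adjusted p = 0.00128). The DKD libraries were again the lowest, while a pair of TRA2A KD libraries exceeded every control. *BRCA1* itself fell by 0.78 on the log2 scale in A549 (29.4, 29.8 and 66.1 TPM against 27.8, 22.9 and 21, adjusted p = 0.021), a call that was lost in 4 of 15 alternative settings, and was -0.26 ± 0.11 (SE), adjusted p = 0.0774 in NCI-H23. *BRCA2*, which loads the recombinase, and *PALB2*, which links it to *BRCA1*, were not called in either line. The A549 log2 fold changes were -0.99 ± 0.42 (SE) for *BRCA2* and -0.45 for *PALB2*, and those of NCI-H23 -0.57 and 0.01.

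Among the factors of strand exchange, 4 of 7 fell in each line, beside 16.3% (A549) and 23.2% (NCI-H23) of all genes. They were the same 4: *RAD51AP1*, *RAD54L*, *XRCC2* and *XRCC3*. *RAD51AP1*, which stimulates strand invasion, measured 16.6, 21 and 22.3 TPM in Control KD of A549, 18.6, 22.9 and 13.9 in TRA2A KD, 19.1, 18.9 and 15 in TRA2B KD and 8.16, 8.19 and 8.0 in the DKD (-1.36 ± 0.16 (SE), adjusted p = 1.26e-04). In NCI-H23 the values were 50.3, 59.1 and 67, 55.7, 52.6 and 57.2, 59.9, 60.7 and 59.2 and, in the DKD, 33.1, 19 and 33.6 (-1.23 ± 0.16 (SE), adjusted p = 1.12e-04). The DKD libraries lay below all 9 others in both lines. *RAD54L*, a translocase that helps the filament invade, held 8.75, 10.8 and 15.9 TPM in the A549 controls and 4.65, 3.18 and 5.82 in the DKD, without overlap (-1.43). Its NCI-H23 controls held 37.7, 52.6 and 43.3 TPM and the DKD 26.1, 19.2 and 31.1 (-0.98). *XRCC2* and *XRCC3*, paralogs of the recombinase, changed by -1.27 and -1.13 in the A549 DKD, by -0.60 and -0.57 in the other line. The paralogs *RAD51B* and *RAD51C* and the translocase *RAD54B* were not called, with log2 fold changes from -0.21 to 0.08 in the first line and from 0.22 to 0.31 in the second.

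Of the 4 end resection genes, 2 fell in A549 and 3 in NCI-H23, beside 16.3% and 23.2% of all genes. *EXO1*, the nuclease that extends the resected tract, measured 23.2, 25 and 28.2 TPM in A549 Control KD, 18.9, 20.6 and 29.7 in TRA2A KD, 14.4, 15 and 17.4 in TRA2B KD and 7.14, 12.1 and 6.06 in the DKD (-1.72 ± 0.25 (SE), adjusted p = 4.55e-04). The NCI-H23 libraries held 30.4, 32.1 and 27.9, 27.9, 32.9 and 25.6, 30.7, 28.4 and 27.1 and 17, 16 and 15 TPM in the same order (-1.06 ± 0.11 (SE), adjusted p = 2.88e-05). The DKD libraries were the lowest of each line, and in A549 the TRA2B KD libraries also lay below the controls without being called (adjusted p = 0.346). *RAD50*, a subunit of the complex that senses ends, fell in both lines (-0.76 and -0.79). Its partner *NBN* fell in NCI-H23, from 37.2, 38.3 and 40.5 to 24.8, 27.5 and 27.3 TPM, and measured -0.15 ± 0.12 (SE), adjusted p = 0.367 in A549. *RBBP8*, which starts resection, was not called (0.14 and -0.21).

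Of the helicases and the dissolution complex, *RMI2*, *BRIP1* and *BLM* fell in both lines, beside 16.3% (A549) and 23.2% (NCI-H23) of all genes. *RMI2*, a small subunit that works with *BLM* to resolve joined molecules without crossing over, measured 22.8, 25.8 and 22 TPM in A549 Control KD, 21.7, 30.02 and 18.7 in TRA2A KD, 20.3, 22.6 and 19.6 in TRA2B KD and 9.74, 8.59 and 11.1 in the DKD (-1.34 ± 0.17 (SE), adjusted p = 2.02e-04). NCI-H23 held 9.94, 12.9 and 14.3, 9.28, 6.89 and 9.17, 9.98, 13 and 10.03 and 6.05, 2.94 and 5.39 TPM (-1.55 ± 0.23 (SE), adjusted p = 3.02e-04). Its DKD levels lay below all other libraries, and in NCI-H23 the TRA2A KD libraries lay below the controls too, with -0.53 ± 0.23 (SE), adjusted p = 0.344. *BRIP1*, a helicase bound by *BRCA1*, gave 6.79, 7.96 and 13.6, 6.56, 6.15 and 7.37, 5.15, 6.1 and 5.14 and 3.49, 2.08 and 3.38 TPM in the 4 groups of A549 (-1.68 ± 0.23 (SE), adjusted p = 3.69e-04). In NCI-H23 it gave 9.68, 8.02 and 11.1, 8.92, 7.34 and 7.5, 8.76, 8.17 and 9.5 and 4.7, 7.02 and 6.39 TPM (-0.82 ± 0.18 (SE), adjusted p = 0.00321). There the DKD libraries lay below all others, the closest being 7.02 TPM in the DKD and 7.34 in TRA2A KD. *BLM* changed by -1.10 and -0.67, *RMI1* by -0.75 in A549, where its call was lost in 3 of 15 alternative settings, and by -0.13 in NCI-H23, where it was not called. *WRN*, another RecQ helicase, was not called (0.34 and 0.09).

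**Figure D2:**
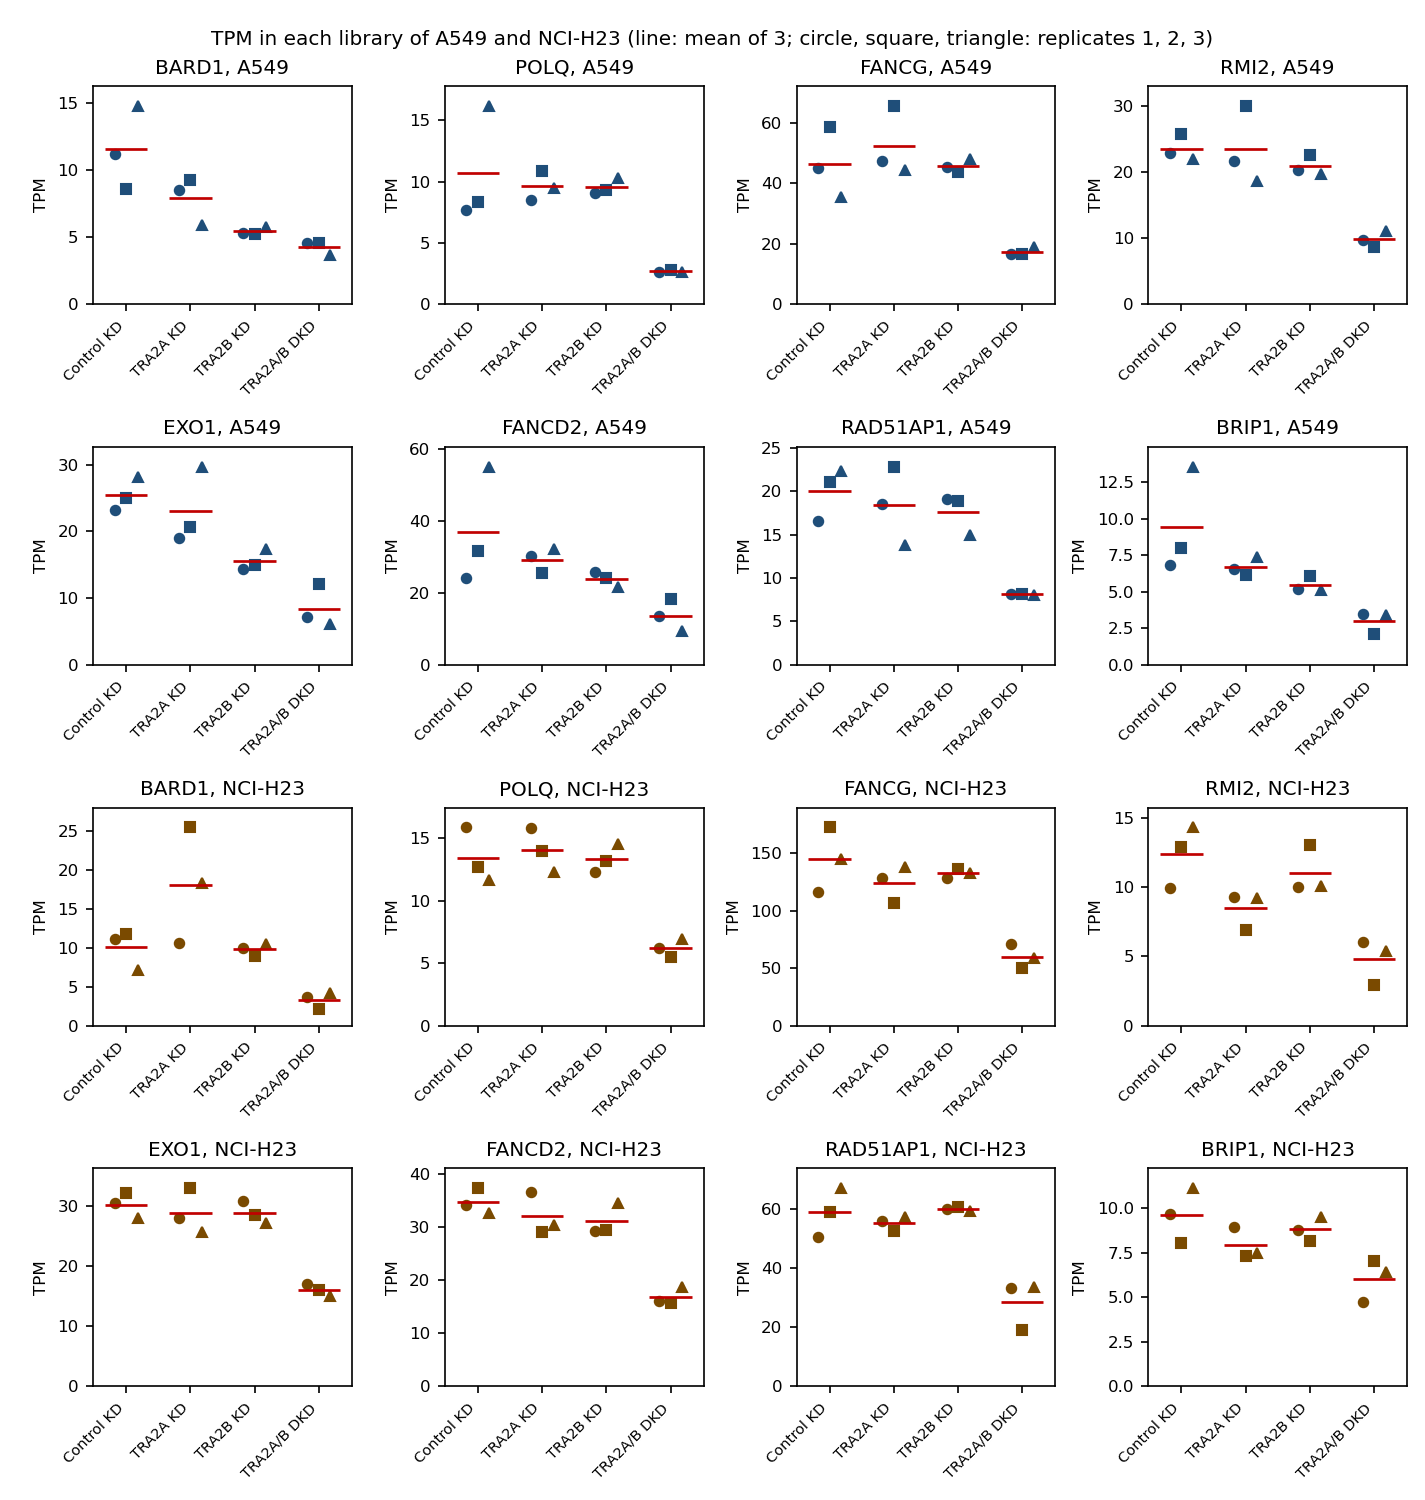
TPM (vertical axis, from 0) of *BARD1*, *POLQ*, *FANCG*, *RMI2*, *EXO1*, *FANCD2*, *RAD51AP1* and *BRIP1* in each of the 12 libraries of A549 (upper rows) and NCI-H23 (lower rows), by group, with a red line at the mean of 3. In each panel the 3 TRA2A/B DKD libraries are the lowest, for example 2.64, 2.75 and 2.61 TPM for *POLQ* in A549.

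Of the 9 genes of the Fanconi core complex and its E2 enzyme, 2 fell in A549 and 5 in NCI-H23. The shares of all genes that fell were 16.3% and 23.2%. *FANCG*, a subunit that holds the complex together, measured 45.2, 58.8 and 35.4 TPM in A549 Control KD, 47.5, 65.7 and 44.4 in TRA2A KD, 45.4, 43.8 and 48.1 in TRA2B KD and 16.5, 16.7 and 18.9 in the DKD (-1.46 ± 0.21 (SE), adjusted p = 4.5e-04). NCI-H23 held 116, 173 and 145, 128, 106 and 138, 128, 137 and 132 and 70.6, 49.7 and 58.4 TPM (-1.43 ± 0.13 (SE), adjusted p = 1.1e-05). Every library outside the DKD lay above the DKD libraries in both lines. *FANCA*, its binding partner, measured 54.1, 56.3 and 107 TPM in the A549 controls and 25.9, 21.8 and 23.5 in the DKD (-1.61). In NCI-H23 these were 76.9, 99.4 and 83.8 and 74.6, 54.5 and 76 TPM (-0.51). *FANCC*, *FANCE* and *FANCL*, the last being the ubiquitin ligase of the complex, fell in NCI-H23 by 0.42, 0.53 and 0.33 on the log2 scale. The TPM ranges of *FANCC* and *FANCL* still overlapped between DKD and control, and the call of *FANCL* was kept in 5 and that of *FANCC* in 9 of 15 alternative settings. The E2 enzyme *UBE2T* was low and scattered, with 4.96, 8.41 and 3.14 TPM in A549 controls against 3.34, 2.38 and 4.4 in the DKD. NCI-H23 held 2.16, 6.08 and 3.78 TPM in controls and 3.18, 3.22 and 3.76 in the DKD. The groups overlapped and it was not called, and *FANCF* and *FANCM* were not called either. *FANCB* was listed at 0 in 1 A549 control and measured 2.28, 1.11 and 1.96 TPM in the DKD, a difference that was not called (adjusted p = 0.0849).

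The 3 genes of the clamp and its deubiquitinase fell in both lines, beside 16.3% (A549) and 23.2% (NCI-H23) of all genes. *FANCD2*, the clamp subunit whose ubiquitin marks the active pathway, measured 24.2, 31.5 and 55.1 TPM in A549 Control KD, 30.2, 25.4 and 32.1 in TRA2A KD, 25.6, 24 and 21.5 in TRA2B KD and 13.5, 18.1 and 9.47 in the DKD (-1.47 ± 0.26 (SE), adjusted p = 0.00167). The third control was the highest library. NCI-H23 held 34.1, 37.3 and 32.7, 36.5, 29.1 and 30.4, 29.2, 29.4 and 34.5 and 16.1, 15.7 and 18.6 TPM (-1.20 ± 0.10 (SE), adjusted p = 4.48e-06), with the DKD libraries below all 9 others. *FANCI*, the other subunit, held 85.6, 88 and 125 TPM in A549 controls and 38.5, 43.9 and 40.02 in the DKD (-1.34 ± 0.10 (SE), adjusted p = 4.45e-06). The NCI-H23 controls held 72.6, 79 and 78.3 TPM and the DKD libraries 38, 46.6 and 43 (-1.01 ± 0.09 (SE), adjusted p = 1.11e-05). *USP1*, which removes the ubiquitin again, changed by -1.01 and -0.68, with no overlap between DKD and control in either line.

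Of the nucleases, *EME1* and *FAN1* fell in both lines, beside 16.3% (A549) and 23.2% (NCI-H23) of all genes, while *MUS81* and *SLX4* were not called. *EME1*, the regulatory partner of *MUS81* in cleaving joined molecules, held 14.5, 22.3 and 20.2 TPM in A549 controls against 7.54, 8.67 and 8.77 in the DKD (-1.24), and 20.6, 24.7 and 24.3 against 17.3, 14.1 and 19.4 TPM for NCI-H23 (-0.62). *MUS81* stood at 34.2, 41.3 and 37.6 TPM in A549 controls and at 35.1, 44.1 and 44.8 in the DKD, overlapping. *SLX4*, the scaffold of these nucleases, had a log2 fold change of -0.19 in A549 and, not called, of 0.35 in NCI-H23, where all 3 DKD libraries (10.3, 11.2 and 11.3 TPM) lay above the controls (8.61, 7.31 and 7.13). *FAN1*, a nuclease for crosslinks, ranged from 4.11 to 16 TPM in the A549 controls and measured 3.78, 4.06 and 3.61 in the DKD (-1.20 ± 0.36 (SE), adjusted p = 0.0285), a call kept in 7 of 15 alternative settings. In NCI-H23 it fell by 1.13 on the log2 scale.

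*POLQ*, the polymerase of theta-mediated end joining, which competes with recombination for resected ends, had the largest fall of the 37 in A549. It measured 7.67, 8.33 and 16.2 TPM in Control KD, 8.52, 10.9 and 9.48 in TRA2A KD, 9.08, 9.32 and 10.3 in TRA2B KD and 2.64, 2.75 and 2.61 in the DKD (-1.96 ± 0.19 (SE), adjusted p = 3.76e-05), or 24.8% of the control mean. In NCI-H23 the libraries held 15.9, 12.7 and 11.7, 15.8, 14 and 12.3, 12.3, 13.1 and 14.5 and 6.18, 5.52 and 6.89 TPM (-1.25 ± 0.15 (SE), adjusted p = 6.65e-05). The DKD libraries were far below the other 9 in both lines, and neither single knockdown left the range of the controls in A549. The classical end joining genes were read beside it. Of 18 tested, 4 fell and 5 rose in A549 (median -0.28) and 8 fell and 1 rose in NCI-H23 (median -0.24). Among all genes 16.3% fell and 14.3% rose in A549, and 23.2% fell and 20% rose in NCI-H23. *SHLD2* (listed as *FAM35A*), a shieldin subunit that protects ends from resection, fell by 0.84 and 1.39 on the log2 scale and *PRKDC*, the DNA-dependent protein kinase, by 0.97 and 0.36. *APTX*, which repairs adenylated ends, rose by 0.90 and 0.27.

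**Figure D3:**
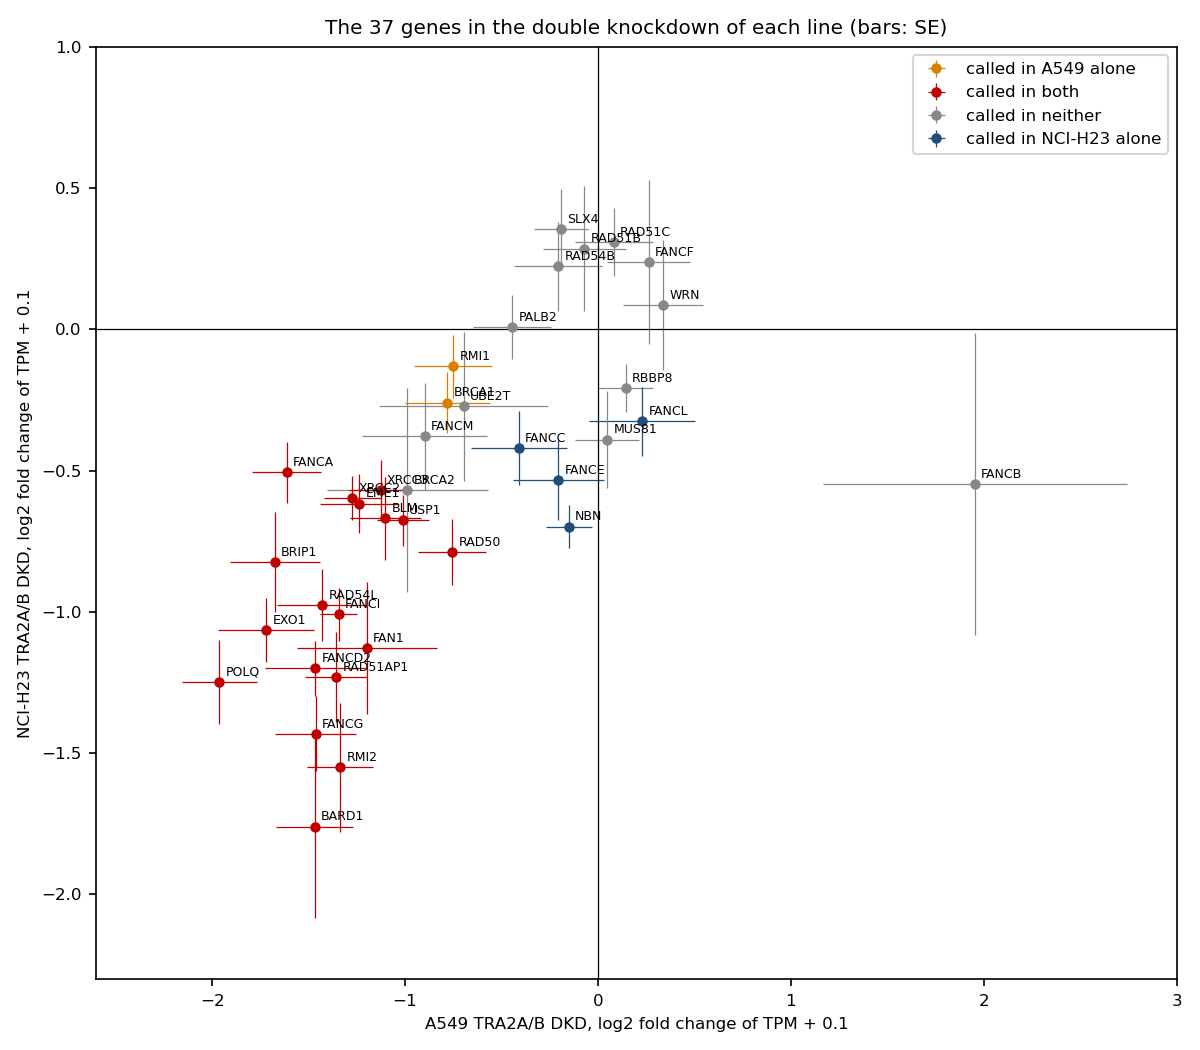
Log2 fold change of TPM + 0.1 in the TRA2A/B DKD of A549 (horizontal) and NCI-H23 (vertical) for the 37 genes, with bars of 1 SE and colors by the lines in which a gene was called. The 18 genes called in both (red) lie in the lower left of the plot, from *USP1* and *XRCC3* near the middle to *POLQ* (-1.96, -1.25) and *BARD1* (-1.47, -1.76).

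Other genes of the pathways were read from a list of 45, of which 43 were tested in both lung lines. In the A549 double knockdown 15 fell and 2 rose (median -0.20), in NCI-H23 22 fell and 7 rose (median -0.40). Among all genes 16.3% fell and 14.3% rose in A549, and 23.2% fell and 20% rose in NCI-H23. Of the 43 listed genes, 13 were called in both lines. *DNA2*, a helicase and nuclease of resection, averaged 7.5 ± 1.97 TPM in the A549 DKD against 24.5 ± 9.15 in control and 9.23 ± 1.21 against 18.9 ± 3.55 in NCI-H23 (-1.75 and -1.17). *GEN1*, which cuts Holliday junctions, changed by -1.27 and -0.55, and *MCM8*, a helicase that acts in recombination, by -0.86 and -1.04. *CENPS* (listed as *APITD1*), which binds *FANCM*, changed by -1.19 and -0.78. Regulators of the recombinase fell too: *FIRRM* (listed as *C1orf112*) by 1.07 and 1.03 on the log2 scale, *SFR1* by 1.12 and 0.97, and *PARPBP* by 1.02 and 0.96. *ZSWIM7*, which works with a paralog of the recombinase, was the one among the 8 largest that rose, to 62.2 ± 7.05 TPM in the A549 DKD (control 30.4 ± 1.3) and to 48.5 ± 7.56 TPM in that of NCI-H23 (control 18.2 ± 3.13).

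The design also asks whether the double knockdown differed from the sum of the single ones on the log2 scale. In A549, 11 members lay below that sum and none above (8.89% and 5.84% of all genes), and in NCI-H23 12 lay below and none above (12.8% and 8.23%). The largest differences in A549 were -2.04 for *POLQ*, -1.89 for *FANCG* and -1.75 for *RAD54L*, and in NCI-H23 -2.44 for *BARD1*, -1.23 for *UBE2T* and -1.22 for *POLQ*. The *UBE2T* call was kept in 7 of 21 alternative settings, and the *BARD1* value includes the higher levels of *BARD1* in TRA2A KD given above. The members called in both lines were *POLQ*, *RAD54L*, *RAD51AP1*, *FANCG*, *XRCC3*, *FANCI*, *XRCC2* and *USP1*. On the TPM as deposited, without scaling to the bulk of genes, the A549 count was 6, and without A549 Control KD replicate 3 it was 16.

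The libraries that stood apart and the scaling moved parts of these results. Without A549 Control KD replicate 3, 19 members fell in the A549 double knockdown and the median was -0.69. On the TPM as deposited the median of all genes rose to 0.11 in the A549 and 0.17 in the NCI-H23 double knockdown, 17 members fell in A549, and 18 fell and 2 rose (*RAD51C* by 0.47 and *SLX4* by 0.51) in NCI-H23.

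LN319 is the glioma line described as *TRA2A*-dependent. Luc TRA2A KO lowered 4 members and raised 1, where 7.44% of 19303 genes fell and 6.82% rose. The median of the members was -0.08. *RMI2* measured 21.3, 20.5 and 23.2 TPM in Luc Control KO and 12.4, 14.4 and 14.9 in Luc TRA2A KO, with all KO libraries below the controls (-0.60 ± 0.13 (SE), adjusted p = 0.00936). *EME1* went from 50.7, 52.8 and 55.7 to 40.4, 43.2 and 39.6 TPM (-0.33 ± 0.06 (SE), adjusted p = 0.00268). *FANCD2* went from 48.6, 49.6 and 53.6 to 39.5, 40.5 and 38 TPM (-0.32 ± 0.07 (SE), adjusted p = 0.0113). Neither gene overlapped between the groups. *BRIP1* measured 13.5, 16.1 and 14.4 TPM in control and 11.9, 11.1 and 11.8 in TRA2A KO (-0.30 ± 0.09 (SE), adjusted p = 0.0397), and *BRCA1* 48.4, 49.5 and 54.2 and 58.7, 58.9 and 54.4 (0.22 ± 0.06 (SE), adjusted p = 0.0372). Their groups were separate as well, by 54.2 against 54.4 TPM for *BRCA1*, but the *BRIP1* call was kept in 8 and the *BRCA1* call in 5 of 14 alternative settings. On the TPM as deposited 6 members fell and none rose, and with quantile normalization 4 and none. S phase genes were lower in 3 and higher in 1 of 38 and G2/M genes lower in 1 and higher in 2 of 54.

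Luc TRA2B KO of LN319 gave 12 higher and 7 lower members, against 18.6% and 24.0% of all genes. The median was 0.07 for the members and 0.02 for all genes, and that of the members ranged from 0.02 without a filter to 0.17 on the TPM as deposited. *FANCB* measured 2.6, 1.5 and 1.98 TPM in Luc Control KO and 3.55, 4.95 and 3.7 in Luc TRA2B KO (0.88 ± 0.26 (SE), adjusted p = 0.017). *POLQ* measured 15.9, 16.7 and 18 TPM in control and 30.7, 30.1 and 29.7 in the KO (0.73 ± 0.08 (SE), adjusted p = 3.05e-05). *RAD54L* measured 41.5, 47.1 and 44.6 and 76, 76.4 and 74.6 TPM (0.66 ± 0.06 (SE), adjusted p = 1.33e-05). For these 3 genes all KO libraries lay above all controls, by the widest margin in *RAD54L* and *POLQ*. *XRCC2* rose from 10.9, 12.1 and 12.4 to 19, 18 and 17.3 TPM (0.51 ± 0.07 (SE), adjusted p = 1.42e-04). *RAD51C* fell from 64.5, 66 and 71.6 to 48.7, 47.7 and 49.2 TPM (-0.58 ± 0.08 (SE), adjusted p = 2.07e-04). *USP1* fell from 102, 104 and 113 to 84.2, 84.9 and 81.3 TPM (-0.46 ± 0.08 (SE), adjusted p = 5.43e-04). The KO libraries were again separate from the controls in all 3 genes, in both directions.

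By role, the Fanconi core complex with its E2 held 5 of the higher members in LN319 Luc TRA2B KO. These were *FANCB*, *FANCM* (0.44), which recognizes the stalled fork, *FANCA* (0.42), *UBE2T* (0.39) and *FANCG* (0.20), while *FANCE* (-0.25) and *FANCF* (-0.23) fell. Strand exchange factors held 3 higher members, *RAD54L*, *XRCC2* and *RAD54B* (0.35), and 1 lower, *RAD51C*. The nucleases *FAN1* (0.37) and *EME1* (0.19) rose, and so did *BRCA1* (0.23). The dissolution subunits *RMI1* (-0.34) and *RMI2* (-0.38) and the resection factor *RBBP8* (-0.32) fell. The call of *FANCF* was kept in 6 and that of *RMI2* in 8 of 14 alternative settings. No called member changed sign in any of them. On the TPM as deposited the median of all genes was 0.12 and 15 members were higher and 4 lower, and with quantile normalization 15 and 8.

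The direction in LN319 Luc TRA2B KO was set beside that of the double knockdowns, which share no library with it. Of the 18 members lower in both double knockdowns, 7 were higher in it (*EME1*, *FAN1*, *FANCA*, *FANCG*, *POLQ*, *RAD54L* and *XRCC2*), 2 were lower (*RMI2* and *USP1*) and the other 9 were not called. These are 38.9% and 11.1% of the 18. Of all 1635 genes lower in both double knockdowns and tested in LN319, 13.3% were higher and 45.8% lower in Luc TRA2B KO. On the TPM as deposited, *POLQ* thus stood at 24.8% and 46.2% of control in the double knockdowns and at 179% in LN319 Luc TRA2B KO, and *RAD54L* at 38.6%, 57.1% and 170.4%. Without scaling the median log2 fold change of all genes in LN319 Luc TRA2B KO was 0.12, so the fitted rises there are smaller. The lines, the day of collection, the guides and the number of genes targeted all differed, and their parts cannot be told apart. The cell cycle lists did not rise with these members. S phase genes fell in 18 and rose in 4 of 38 and G2/M genes fell in 37 and rose in 3 of 54 in LN319 Luc TRA2B KO, with medians of -0.29 for both. Mitochondrially encoded transcripts took 18.3 to 20.6% of TPM in these libraries and 12.1 to 12.8% in the controls, and their part in the result was not tested. *EME1* was lower in Luc TRA2A KO and higher in Luc TRA2B KO of the same line, comparisons that share the 3 Luc Control KO libraries. *RMI2* was lower and *BRCA1* higher in both.

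**Figure D4:**
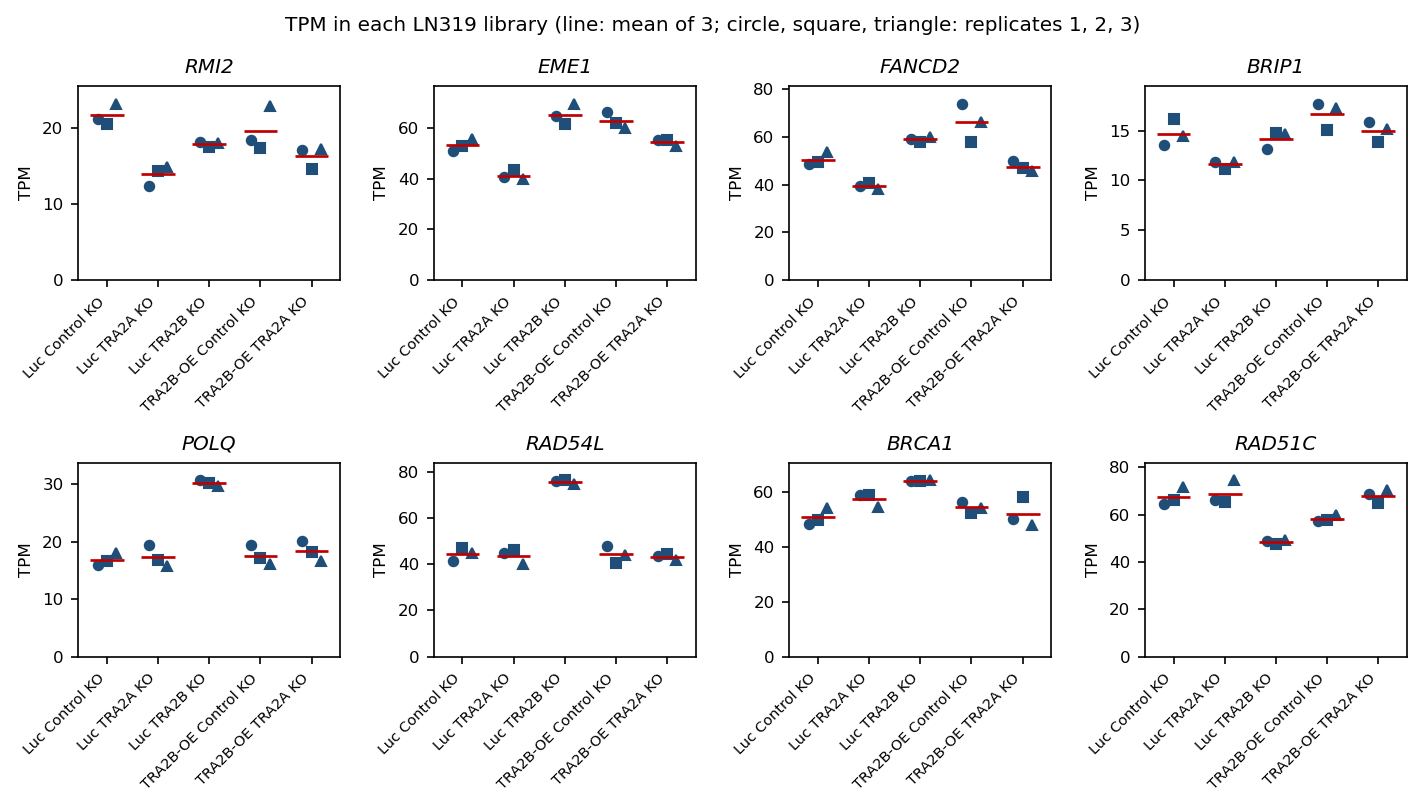
TPM (vertical axis, from 0) of *RMI2*, *EME1*, *FANCD2*, *BRIP1*, *POLQ*, *RAD54L*, *BRCA1* and *RAD51C* in each of the 15 LN319 libraries, by group, with a red line at the mean of 3. *POLQ* and *RAD54L* stand highest in the 3 Luc TRA2B KO libraries (29.7 to 30.7 and 74.6 to 76.4 TPM), and *FANCD2* lowest in Luc TRA2A KO (38 to 40.5 TPM).

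Overexpression of *TRA2B* in LN319 raised 1 member, *FANCD2*, and lowered none, where 2.16% of all genes rose and 2.16% fell. It measured 48.6, 49.6 and 53.6 TPM in Luc Control KO and 74.1, 58.1 and 66.3 in TRA2B-OE Control KO (0.29 ± 0.07 (SE), adjusted p = 0.0418). In TRA2B-OE TRA2A KO *FANCD2* measured 50.001, 46.9 and 45.6 TPM and was the one member lower than in TRA2B-OE Control KO (-0.41 ± 0.07 (SE), adjusted p = 0.0153), where 1.29% of genes were lower and 1.48% higher. The TRA2B-OE Control KO libraries lay above those of the other two groups, whose ranges overlapped. The call in TRA2B-OE Control KO was kept in 7 and that in TRA2B-OE TRA2A KO in 10 of 14 alternative settings. The effect of TRA2A KO on *FANCD2* was -0.32 in Luc cells and -0.41 in TRA2B-OE cells, and the difference was -0.09 ± 0.10 (SE), adjusted p = 0.871. No member was called in that test of the difference in LN319, where 0.0207% of all genes were called. At an unadjusted p below 0.05 there were 4 members, a threshold at which all genes were not counted. *RMI2*, the member with the largest fall in Luc TRA2A KO, measured 18.4, 17.4 and 22.9 TPM in TRA2B-OE Control KO and 17.1, 14.6 and 17.2 in TRA2B-OE TRA2A KO (-0.20 ± 0.13 (SE), adjusted p = 0.47), and its difference between the backgrounds was 0.41 ± 0.18 (SE), adjusted p = 0.625.

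LN229 is the glioma line described as *TRA2A*-independent. No member was called there in any of the 4 comparisons, and at an unadjusted p below 0.05 there were 5 in Luc TRA2A KO, 12 in Luc TRA2B KO, 1 in TRA2B-OE Control KO and 2 in TRA2B-OE TRA2A KO. Of all 18490 genes, 3.68%, 0.568%, 1.03% and 6.07% were called, which rests on the adjusted p. The share of all genes at the unadjusted threshold was not counted. The members' median was 0.19, -0.34, -0.01 and 0.11 in the same order. With 1 library left out at a time they ranged from -0.0007 to 0.30, from -0.55 to -0.22, from -0.20 to 0.18 and from -0.08 to 0.19. Without Luc Control KO replicate 1 the first 3 were -0.0007, -0.55 and -0.20, and without TRA2B-OE Control KO replicate 1 the last 2 were 0.18 and -0.08. In the test of the TRA2A KO effect between the 2 backgrounds no member was called either, with 0.0% of all genes called. At an unadjusted p below 0.05 there was 1 member, again without a share of all genes. These comparisons rest on the control libraries numbered 1, which stood apart, and in all 5 groups of the line the library numbered 1 had the lowest member median. Their median member difference from the Luc Control KO mean was -0.40 (Luc) and -0.39 (TRA2B-OE), against 0.16 to 0.21 in the other 4 controls. In Luc TRA2B KO the 3 libraries differed little and stood at -0.35, -0.33 and -0.34. In the same libraries numbered 1 the S phase genes stood at -0.47 and -0.44 and the G2/M genes at -0.51 and -0.42. With the replicate number as a block in the fit, 5 members fell and 0 rose in Luc TRA2B KO. Of all 18490 genes, 751 fell and 546 rose in that fit.

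In LN229 *BARD1* and *FANCG* differed in where the first control lay. *BARD1* measured 15.1, 20.3 and 27.5 TPM in Luc Control KO and 9.62, 12.8 and 14.7 in Luc TRA2B KO, all below the controls but the first control the nearest (-0.78 ± 0.23 (SE), adjusted p = 0.097). *FANCG* measured 46, 84.5 and 90.05 and 47.9, 50.5 and 47.8 TPM, so that the first control lay below all 3 KO libraries (-0.58 ± 0.23 (SE), adjusted p = 0.173). Without Luc Control KO replicate 1, 19 members fell and 1 rose in Luc TRA2B KO, where 12.2% of all genes fell and 8.66% rose, and the members' median was -0.55. The fitted changes were then -1.14 for *BRCA2*, -1.01 for *BARD1*, -0.90 for *FANCG*, -0.87 for *EXO1* and 0.32 for *FANCL*, the one that rose. S phase genes fell in 25 of 38 and G2/M genes in 40 of 54 in that fit, with none higher. With both libraries numbered 1 left out, 23 members fell and 1 rose, against 16.1% and 11.6% of all genes. Which of these fits describes the line was not tested, and whether the first control is unusual cannot be decided from 3 libraries.

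**Figure D5:**
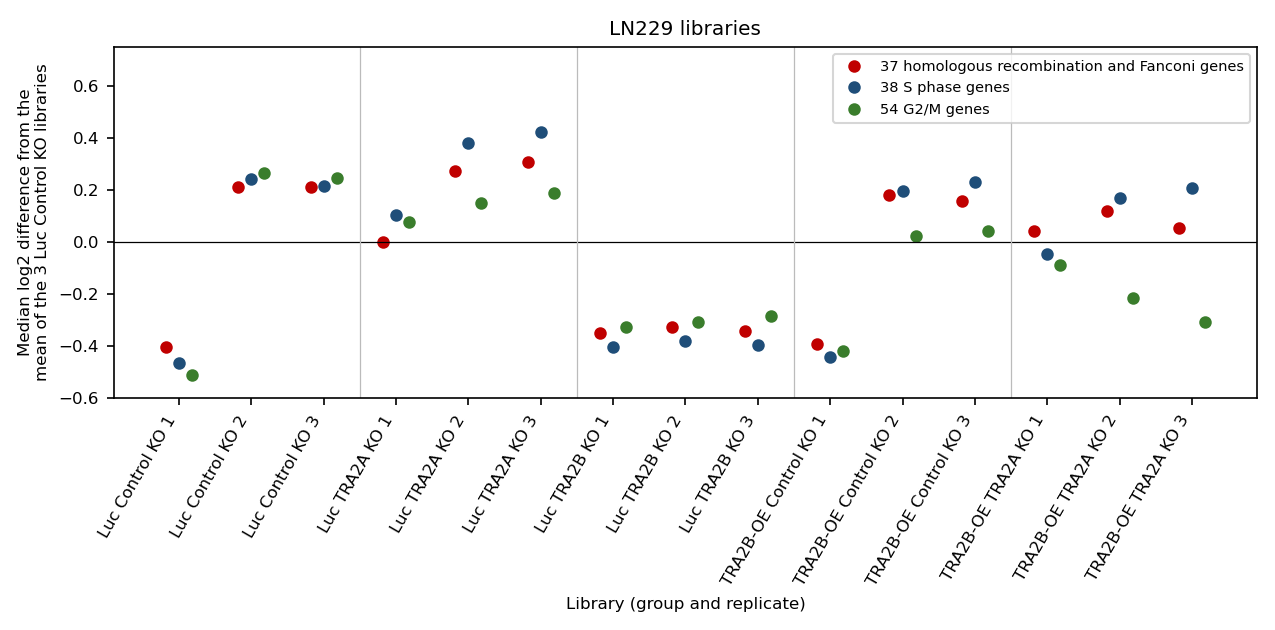
Median log2 difference of the 37 genes (red), 38 S phase genes (blue) and 54 G2/M genes (green) from the mean of the 3 Luc Control KO libraries, for each of the 15 LN229 libraries. Luc Control KO 1 and TRA2B-OE Control KO 1 lie at about the level of the 3 Luc TRA2B KO libraries (members at -0.40, -0.39 and -0.33 to -0.35), and the other 4 controls lie above 0.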

How the data were processed

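Poly(A) RNA was sequenced as directional libraries. Gene-level TPM values were deposited by the authors, per the study's methods from kallisto v0.48.0 with Gencode v34 transcripts (GRCh38), STAR 2.7.3 serving splicing only. Read depth cannot be recovered from TPM, and no intervals that need it are given. Genes reaching 1 TPM in 4 or more libraries of a line were kept, libraries were scaled by trimmed means (trims of 30% and 5%), and log2(TPM + 0.1) was fitted with limma 3.58.1 (R 4.3.3, mean trend), all libraries of a line in 1 fit. P-values were Benjamini-Hochberg adjusted over all genes of the line. Fold changes on the log2(TPM + 0.1) scale understate low genes. TPM values, their ranges and percentages of control are given as deposited, without the scaling by trimmed means. With 3 against 3 libraries an exact permutation test of 1 gene cannot go below p = 0.1, so none is given. The fit was tested on simulated data. The members and all lists were chosen with earlier results of these data known. All members could be named; values per library are given for the 8 with the largest mean change among those called in both double knockdowns, up to 6 called in each glioma comparison and those called in opposite directions, and other lists up to 8 genes called in both double knockdowns. Values of further members were chosen after they were seen. Alternatives changed the pseudocount, filter, scaling, replicate block, fit and libraries, and 2 were added after the data were seen (length and GC trend, both LN229 libraries numbered 1 left out). Replicate numbers were not taken to pair the libraries, since same-number pairs did not all correlate above 0.1, which does not exclude pairing. Promoter windows came from RefSeq and were set against Gencode v44 genes.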

Additional observations from a re-analysis of the deposited data

Results flagged for a closer look

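For 3 genes the libraries were fully separated from their controls in LN229 and LN319, in opposite directions. They were picked from the members by this pattern, and its share among all genes was not counted. With 3 against 3 libraries, full separation of some genes can arise by chance, so the pattern alone does not show a difference between the lines. Separation was judged on the TPM as deposited, whereas the log2 fold changes below come from scaled levels. On the TPM as deposited the median log2 fold change of all genes was 0.12 in LN319 Luc TRA2B KO and 0.06 in LN319 TRA2B-OE Control KO. In LN229 it was 0.05 and 0.04. The part of these offsets in the separation was not tested. The difference between lines was not tested, since the tables were normalized separately. In Luc TRA2B KO *FANCD2* changed by -0.55 on the log2 scale in LN229 (30.6, 44.1 and 45.6 TPM in control, 27, 26.8 and 29.6 in KO) and by 0.12 in LN319 (48.6, 49.6 and 53.6 and 59.2, 57.8 and 60.1). *SLX4* changed by -0.44 in LN229 and by 0.068 in LN319 under the same contrast. With *TRA2B* overexpressed and control guides, *FANCL* changed by -0.20 in LN229 and by 0.075 in LN319. None of these 6 changes was called.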

How the results depend on the processing

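The counts of called members kept within 1.5 times of those reported under the other pseudocounts, quantile normalization and, in both lung lines, the removal of a trend with transcript length and GC, which was void in LN229 and LN319, where only 78.4% and 78.2% of genes had a length (82.4% and 82.3% in A549 and NCI-H23). No called member reversed under any alternative. Requiring an absolute log2 fold change above 1 left 9 members in the NCI-H23 double knockdown, 6 in NCI-H23 beyond both single knockdowns and 0 in each LN319 comparison that had called members (Luc TRA2A KO, Luc TRA2B KO, TRA2B-OE Control KO and TRA2B-OE TRA2A KO). TPM as deposited gave 6 in A549 beyond both single knockdowns and 2 in LN319 TRA2B-OE Control KO. Without a filter the counts were 3 in LN319 Luc TRA2A KO and 0 in LN319 TRA2B-OE Control KO, and with a filter of 5 TPM they were 2 in LN319 TRA2B-OE Control KO and 2 in LN319 TRA2B-OE TRA2A KO. Fitting only the groups compared gave 3 in LN319 Luc TRA2A KO and 0 in both TRA2B-OE comparisons of LN319. With both LN229 libraries numbered 1 left out the counts were 24 in LN229 Luc TRA2B KO and 2 in LN229 TRA2B-OE TRA2A KO. Leaving out 1 library at a time gave 0 to 20 in LN229 Luc TRA2B KO (20 without Luc Control KO replicate 1), 3 to 5 in LN319 Luc TRA2A KO, 15 to 18 in LN319 Luc TRA2B KO, 0 to 1 in LN319 TRA2B-OE Control KO, 0 to 2 in LN319 TRA2B-OE TRA2A KO, 17 to 22 in the A549 and 20 to 24 in the NCI-H23 double knockdown, and 10 to 16 and 11 to 14 beyond both single knockdowns. The cause of these shifts was not tested.

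The replicate numbers were not taken to pair the libraries, since few same-number pairs correlated above 0.1: 3 of 18 in A549, 1 of 18 in NCI-H23, 3 of 30 in LN229 and 0 of 30 in LN319, and 7 of 12, 4 of 12, 8 of 15 and 8 of 15 libraries correlated best with their own number. A cut of this kind does not exclude pairing. With the replicate block the counts were 5 in LN229 Luc TRA2B KO, 3 in LN319 TRA2B-OE Control KO and 3 in LN319 TRA2B-OE TRA2A KO, and the others stayed within 1.5 times. The block also changed the calls over all genes of LN229. In Luc TRA2B KO 751 genes fell and 546 rose with it, against 105 called without it. In Luc TRA2A KO 830 fell and 755 rose with it, against 681 called without it.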
